A study of Mus musculus with 12 samples.

Results

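The regions described here are stretches of open chromatin called in each EF_IGF1 library as well as in the EF_IGF1_xeno library, and in none of the 9 other libraries of a mouse ATAC-seq series. Overlapping peaks of all 12 libraries on chromosomes 1 to 19 and X were merged wherever they shared at least 1 bp, which gave 153346 regions. Of these, 1068 met the rule, which is 0.696% of all regions. The calls of all 12 libraries chose the 1068 regions, so those calls and the peak heights behind them are given as a description without a test. EF_IGF1 replicates 1 and 2 called 36.8% and 39.5% of all regions and EF_IGF1_xeno 26.7%. EF replicates 1 to 4 called 32.5%, 16.7%, 32.9% and 42.4%, Wt_IGF1 51.9%, and Wt replicates 1 to 4 4.87%, 38.4%, 35.3% and 43.7%.

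ATAC-seq uses a transposase that cuts accessible DNA, so that piles of reads mark open chromatin. The cells were labelled MSCLCs, and the series title names bone mesenchymal stem cells, the fusion oncogene EWS::FLI1, YAP1 and IGF-1. The groups were EF_IGF1 (n = 2, titled with the line names S_220 and S_221), EF_IGF1_xeno (n = 1, line name S_221), EF (n = 4, lines S_220 and S_221), Wt_IGF1 (n = 1) and Wt (n = 4). The sources used here do not spell out EF, xeno or the other labels, nor the dose or length of any IGF1 treatment, nor the age of the animals. They also do not say which libraries belong to the ha-EFPrx1 and hr-EFPrx1 cells that the design text names. Every EF, EF_IGF1 and EF_IGF1_xeno library carried 1 of only 2 line names, and the labels do not state whether the replicates were separate animals or cultures. EF replicates 1 and 2 and Wt replicates 1 and 2 came from flowcell BSF_0654, while BSF_1013 carried the remaining 8 libraries.

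EWS::FLI1 is the driver of Ewing sarcoma and joins part of EWSR1 to the ETS factor FLI1, which binds the core GGAA. The fusion opens chromatin at GGAA repeats that are otherwise closed, and it also represses lineage genes. YAP1 is the co-activator that the Hippo pathway holds out of the nucleus, and it acts through TEAD factors, often at enhancers that AP-1 binds as well. IGF-1 signals through the receptor IGF1R to the PI3K and MAPK pathways and is a growth factor for mesenchymal cells and for Ewing sarcoma cells.

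Of the 1068 regions, few lay on a promoter, and 29 RefSeq promoter windows of GRCm38.p6 (250 bases before to 50 bases after a start) overlapped one. The 4 windows below show the strongest region, which covers a non-coding start, 1 of the 4 regions at the calcium pump gene Atp2b2, and the starts of the transcription factor gene Runx3 and of the cell cycle inhibitor gene Cdkn1a. Capitals mark matches to 5 motifs searched on both strands.
Gm40794, chr10:123536163-123536462, minus strand: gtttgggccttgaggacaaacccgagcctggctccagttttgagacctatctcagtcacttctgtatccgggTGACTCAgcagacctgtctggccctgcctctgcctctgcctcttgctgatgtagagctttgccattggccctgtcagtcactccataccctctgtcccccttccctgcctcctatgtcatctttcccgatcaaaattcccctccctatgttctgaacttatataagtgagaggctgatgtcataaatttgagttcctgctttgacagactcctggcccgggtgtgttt
Atp2b2, chr6:113934632-113934931, minus strand: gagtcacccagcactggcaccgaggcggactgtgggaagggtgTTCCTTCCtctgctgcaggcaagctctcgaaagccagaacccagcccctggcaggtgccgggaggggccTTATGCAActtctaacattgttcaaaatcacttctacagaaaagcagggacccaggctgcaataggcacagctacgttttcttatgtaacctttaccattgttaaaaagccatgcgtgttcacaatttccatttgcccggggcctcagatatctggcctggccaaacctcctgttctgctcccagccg
Runx3, chr4:135120395-135120694, plus strand: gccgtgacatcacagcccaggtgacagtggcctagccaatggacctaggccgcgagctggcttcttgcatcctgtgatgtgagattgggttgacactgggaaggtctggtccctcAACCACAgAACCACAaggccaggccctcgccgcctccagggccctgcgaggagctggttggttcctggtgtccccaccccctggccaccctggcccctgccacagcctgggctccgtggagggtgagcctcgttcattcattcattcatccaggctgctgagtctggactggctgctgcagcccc
Cdkn1a, chr17:29090729-29091028, plus strand: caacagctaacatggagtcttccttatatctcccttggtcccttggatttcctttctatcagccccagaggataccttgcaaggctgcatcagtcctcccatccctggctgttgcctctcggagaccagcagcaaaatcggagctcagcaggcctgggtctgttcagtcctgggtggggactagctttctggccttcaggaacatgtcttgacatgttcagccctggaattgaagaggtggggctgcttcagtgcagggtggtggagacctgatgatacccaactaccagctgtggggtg
The motifs were GGAAGGAA (a pair of the GGAA units bound by EWS::FLI1), GGAATG (TEAD), TGANTCA (AP-1), TGTGGTT (RUNX) and TTGCNNAA (C/EBP). GGAAGGAA and GGAATG can share letters, while the matches in capitals above do not overlap. The Gm40794 window holds 1 AP-1 match, the Atp2b2 window holds a GGAA pair and a C/EBP match, the Runx3 window holds a pair of RUNX matches, and the Cdkn1a window holds none of the 5 motifs. Over the 29 windows, GGAAGGAA was present in 3, GGAATG in 5, TGANTCA in 2, TGTGGTT in 2 and TTGCNNAA in 6. Over all 32619 promoter windows on the chromosomes used, the same motifs were in 3.69%, 14.6%, 7.85%, 5.29% and 10.9%, in the same order. The 2 windows with TGTGGTT, of Runx3 and the gene model Gm16225, overlap and hold the same pair of matches, so not all windows are separate. A match is a description of the letters, not a bound site. The letters of the other regions were not analysed here.

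The regions were weak to middling peaks in each of the 3 libraries that called them. The reads at a summit were solved from the fold and p-value the authors deposited for each peak. The median region had 29 reads at its summit in EF_IGF1 replicate 1 (range 9 to 119), 23 in EF_IGF1 replicate 2 (9 to 133) and 22 in EF_IGF1_xeno (10 to 110). All peaks of these libraries had medians of 36, 32 and 35 reads, so the regions sat below the middle of every list. By −log10 p, the median region stood at percentile 44.8 of the list of EF_IGF1 replicate 1, at 33.0 in EF_IGF1 replicate 2 and at 26.1 in EF_IGF1_xeno. EF_IGF1 replicate 1 had the most reads of the 3 in 663 regions, EF_IGF1 replicate 2 in 226 and EF_IGF1_xeno in 127, with ties in the rest. Across the 1068 regions the reads of the 3 libraries were related with a Spearman correlation of 0.549 to 0.627, a description over regions that share libraries and local sequence.

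**Figure D1:**
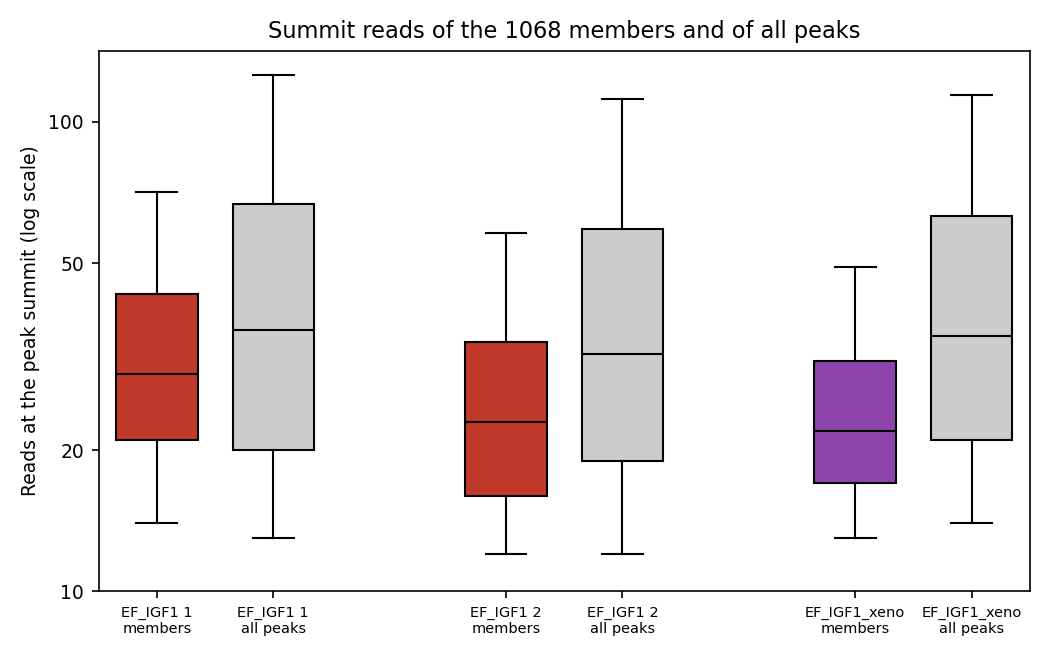
Reads at the peak summit (log scale) of the 1068 regions (coloured) and of all peaks (grey) in EF_IGF1 replicates 1 and 2 and EF_IGF1_xeno; boxes span the quartiles, lines mark medians and whiskers reach from percentile 5 to 95. The medians of the regions, 29, 23 and 22 reads, lie below those of all peaks, 36, 32 and 35 reads.

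The strongest region by the least −log10 q of the 3 libraries lay inside Tafa2, which encodes a secreted chemokine-like protein of the nervous system (chr10:123535994-123536742). It had 110 and 61 reads in the EF_IGF1 libraries and 58 in EF_IGF1_xeno. Its summit was 92 bp from the Gm40794 start shown above. The next lay inside St6galnac3, a sialyltransferase gene (chr3:153452854-153453873), with 80, 94 and 67 reads in EF_IGF1 replicate 1, EF_IGF1 replicate 2 and EF_IGF1_xeno. A region inside Lama5, the laminin alpha-5 gene, had 117, 97 and 82 reads in the same order, and a region far outside Adgrb1, an adhesion receptor gene 239928 bp away, had 101, 99 and 76. A region 6054 bp outside Cfap300, a cilia gene next to Yap1, had 118, 103 and 110 reads. A region inside Bmp7, a bone morphogenetic protein gene (chr2:172906156-172906774), was lowest in EF_IGF1 replicate 1 with 45 reads, against 91 in EF_IGF1 replicate 2 and 73 in EF_IGF1_xeno. The others among the 12 strongest were nearest to Trim31, Septin6, Otud7a, Apob, Neto1 and Gm30083, and had 42 to 72 reads in each library.

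The edge of the rule was set largely by 1 EF library. Regions called in the 3 libraries and in exactly 1 of the 9 others numbered 2005, and 1606 of them had their further call in EF replicate 4 (title S_221_0). The other EF libraries gave 11 to 34 such regions, Wt_IGF1 gave 156, and the Wt libraries gave 1 to 95. In that further library the median peak had 22 reads and a −log10 q of 11.1. On the other side of the rule, 1953 regions were called in only 2 of the 3 libraries and in no other, 1125 of them in both EF_IGF1 libraries. Among the 1068 regions the least −log10 q ran from 2.98 to 54.4 with a median of 8.20, and it was 5 or more in 952. The nearest peak of any of the 9 others was a median of 3259 bp away, and within 500 bp for 118 regions (11.05%).

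A missing call did not carry the same weight in every library. When the reads of each region were scaled to a library by its median at the 5784 regions called in all 12, the median region came to 23.4 reads in EF replicate 4, 19.7 in Wt replicate 2, 17.5 in Wt replicate 4, 14.8 in EF replicate 3 and 14.3 in Wt_IGF1. In those 5 libraries 85.4% to 100% of the regions would have reached the reads of the weakest 5% of called peaks. In EF replicate 1 this share was 64.8%, in Wt replicate 3 46.8%, in EF replicate 2 25.3% and in Wt replicate 1 2.34%. Wt replicate 1 listed 7748 peaks and EF replicate 2 27332, against 59325 and 63506 in the EF_IGF1 libraries, 43416 in EF_IGF1_xeno and 83718 in Wt_IGF1. In the shallowest libraries, most regions of equal scaled height would thus fall below the called peaks. The scaling leaves out the local background, which also enters the p-value of a peak. Reaching these reads therefore does not mean that a call would have been made. In bulk libraries, fewer open cells and less opening per cell cannot be told apart.

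Each of the 3 libraries can be held out and read against a choice made without it. Of 2193 regions shared by EF_IGF1 replicates 1 and 2 and absent from the 9 others, 1068 (48.7%, exact 95% Clopper-Pearson interval 46.6 to 50.8) were called in EF_IGF1_xeno, which called 26.7% of all regions. The share was below the 77.5% of all regions called in both EF_IGF1 libraries that EF_IGF1_xeno also called. EF_IGF1 replicate 1 called 84.4% (82.3 to 86.4) of 1265 regions chosen by EF_IGF1 replicate 2 and EF_IGF1_xeno, although its line name differs from theirs. EF_IGF1 replicate 1 called 95.2% of all regions that those same libraries shared. EF_IGF1 replicate 2 called 62.9% (60.5 to 65.2) of 1699 regions chosen by EF_IGF1 replicate 1 and EF_IGF1_xeno, against 95.2% of all regions that this pair shared. Each held-out share of private regions was thus below the share of all regions called in the same pair. Wt_IGF1 can be read in the same way, as a Wt library that shares the IGF1 label and the flowcell with the 3. Of 2510 regions that EF_IGF1 replicates 1 and 2 shared without any EF or Wt library, EF_IGF1_xeno called 48.8% (46.8 to 50.7) and Wt_IGF1 called 12.6% (11.4 to 14.0). Wt_IGF1 nevertheless called 80.4% of all regions called in both EF_IGF1 libraries, and 51.9% of all regions. Intervals cover counting error over regions only, since regions of the same libraries are not independent and each held-out group is 1 library. The PCR reads behind the calls are not independent molecules either.

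**Figure D2:**
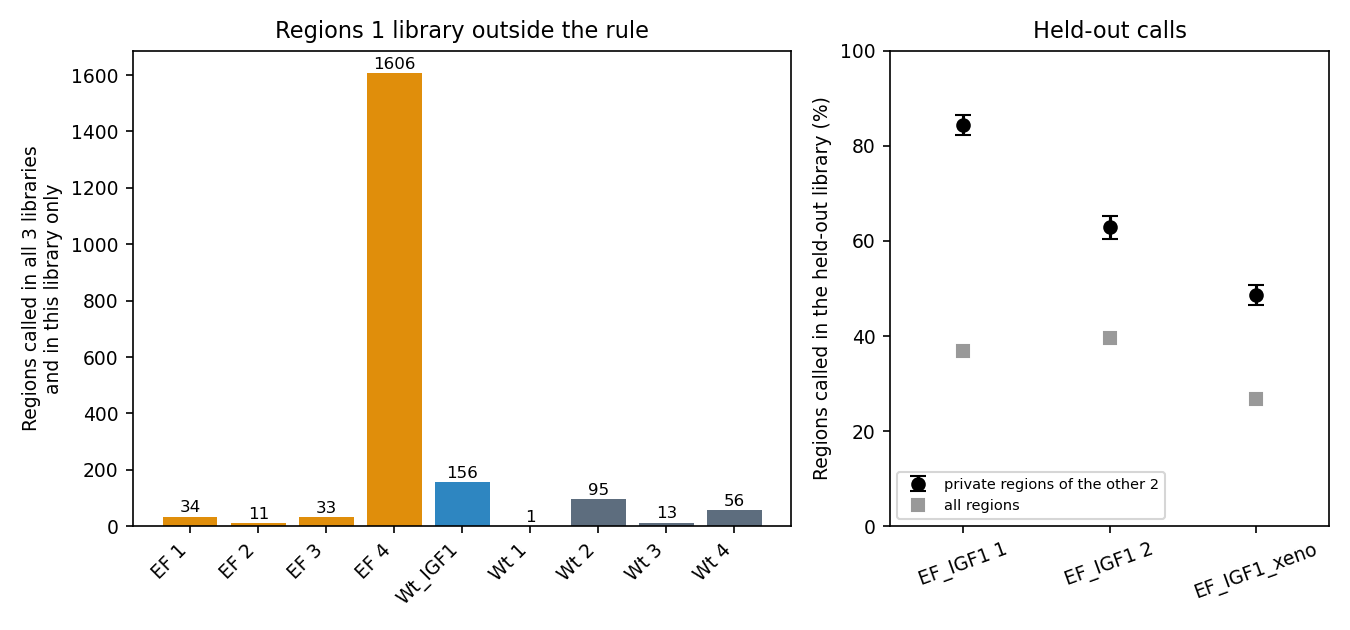
Left, regions called in all 3 libraries and in exactly 1 of the 9 others, by that other library; EF replicate 4 holds 1606 of the 2005. Right, percent of regions called in a held-out library among regions private to the remaining 2 of the 3 (black, with 95% Clopper-Pearson intervals) and among all regions (grey squares); 84.4% and 62.9% in the EF_IGF1 libraries and 48.7% in EF_IGF1_xeno, each above its share of all regions and below the 95.2%, 95.2% and 77.5% of all regions called in the remaining 2, which are not drawn.

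The regions lay away from gene ends and starts more often than regions of the series at large. A summit within 1 kb of either end of a protein-coding gene was found for 60 regions (5.62%), against 10.8% of all regions. Of the 1045 regions on chromosomes with listed starts, 4.78% lay within 1 kb of a RefSeq start, against 10.5% of all such regions, and 43.5% lay inside a gene, against 52.1% of all regions. Regions of a reverse pattern, called in none of the 3 libraries but in all 5 other libraries of flowcell BSF_1013, numbered 1247, and 12.99% of them lay within 1 kb of a gene end. Regions called in the 3 libraries and in at least 3 of 4 EF libraries but in no Wt or Wt_IGF1 library numbered 401, with 3.74% near a gene end. With the top 20000 peaks of each library alone, 9.74% of the regions that met the rule lay near a gene end, against 19.3% of all 53070 regions. The median width was 447.5 bp, against 412 bp for all regions.

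The regions were spread over 833 protein-coding genes, counted as the nearest gene within 100 kb. Of these genes 755 had 1 region and 61 had 2, and 127 regions lay beyond 100 kb. Gabbr2, which encodes a subunit of the receptor for the inhibitory transmitter GABA, had the most with 8 of its 35 regions (22.9%). The strongest at Gabbr2 had 80 and 76 reads in the EF_IGF1 libraries and 57 in EF_IGF1_xeno. Of the 8, 7 lay inside the gene. Arhgap42, a GTPase-activating protein gene that restrains vascular contraction, had 6 of 66 regions, and Col22a1, a collagen of tissue junctions, had 5 of 23. Igsf21, a synaptic adhesion gene, had 4 of only 9 regions (44.4%), Atp2b2 4 of 21, and Rap1gap2, which turns off the small GTPase Rap1, 4 of 27. Hsd17b2, which inactivates oestradiol and testosterone, had 3 of 8 regions. Rbm38, an RNA-binding p53 target, had 3 of 9, Pawr, a pro-apoptotic factor gene, 3 of 14, and Tle3, a Groucho co-repressor gene, 3 of 48. These genes were named for having most of the regions, so shares above the 0.696% over all regions follow largely from that choice. Regions at 1 gene share 1 locus and are not separate observations.

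Some regions did lie at gene starts. The region at Ccn1, a matrix protein gene and a classical YAP1 target, had 111 and 93 reads in the EF_IGF1 libraries and 80 in EF_IGF1_xeno, 603 bp from the start. Its fold over local background was only 2.91 to 3.11 in the 3 libraries, and a peak of another library lay 128 bp away. The region at Runx3, a Runt-domain transcription factor gene of cartilage and blood, had 27, 48 and 46 reads in EF_IGF1 replicate 1, EF_IGF1 replicate 2 and EF_IGF1_xeno. At Edn2, an endothelin gene, the values were 26, 25 and 52, so EF_IGF1_xeno was highest. At Otog, a gene of the inner ear matrix, they were 64, 19 and 36, so EF_IGF1 replicate 1 was highest. The region at a listed start of Cdkn1a, the gene of the p53 target p21, had 89, 63 and 40 reads. A peak of another library lay 2298 bp from it. Near the other end of Lep, the gene of the adipocyte hormone leptin, a region had 38, 40 and 35 reads, close to equal, and at the end of Tnks, the tankyrase gene whose product lowers axin, it had 55, 45 and 45.

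Genes of the pathways the study names were read against the 0.696% of all regions that were private to the 3 libraries. The IGF and EWS::FLI1 lists lay near that share. The YAP and TEAD list was above it, but on only 6 regions. Of the 477 regions at 27 genes of the IGF and insulin pathway, 3 (0.629%) were private to the 3 libraries, at Igfbp7, Irs2 and Igf2r. Igf1 and the receptor gene Igf1r had none of their 32 and 53 regions among them. Of 514 regions at 24 YAP and TEAD target genes, 6 (1.17%) were, at Crim1 (2), Ccn1, F3, Amotl2 and Tgfb2. With genes assigned within 20 kb, this list had 4 of 411. The regions at Ccn1 and F3 lay 128 and 199 bp from a peak of another library, and the rest of the 6 lay 552 to 1762 bp from one. Hippo core genes had 1 of 279, at Wwc1, an upstream activator also called KIBRA. EWS::FLI1 target genes of human Ewing sarcoma had 2 of 330 (0.606%), both at Vrk1, a kinase gene of mitosis, with 60, 49 and 42 reads at the stronger. The Ewing sarcoma gene Nkx2-2 had none of its 3 regions among them, and Nr0b1 had no region at all. Yap1 itself, its paralogue Wwtr1, the tumour suppressor gene Cdkn2a and the limb mesenchyme factor gene Prrx1 also had none.

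Shares at the lineage and neural lists lay on both sides of 0.696%. Neural adhesion and synapse genes had 16 of 666 regions (2.40%), 8 of them at the single locus Gabbr2. SOX, PAX and FOX factors had 9 of 394 (2.28%), 3 of them at Pax2, a kidney and ear factor, and 1 each at Foxa2, Foxd1 and Pax8 among others. Adipogenic genes had 5 of 264 (1.89%), at Lep (2), Cebpb, Klf15 and Lpl. Chondrogenic genes had 3 of 203, at Runx3, Sox5 and Sox9, while osteogenic genes had 0 of 182. Anterior HOX genes had 2 of 70, at Hoxb6 and Hoxb7, posterior HOX genes 1 of 67, at Hoxc13, and ETS factors 0 of 286. Hedgehog and BMP genes had 3 of 331 (0.906%), at Bmp7, Gli2 and Gli3, extracellular matrix genes 3 of 552, WNT genes 3 of 480, TGF-beta and FGF genes 2 of 354, mesenchymal stem and limb genes 1 of 348 (0.287%), and inflammatory and AP-1 genes 1 of 286. Cell cycle and tumour suppressor genes had 3 of 267, at Cdkn1a, Cdkn2b and Cdk6. All lists together held 62 of the regions, and counts this small say little about any list; no list was tested.

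Marker genes gave a check of the labelled cell type. The mesenchymal markers had no region private to the 3 libraries, and the EF_IGF1 libraries called 36.1% and 38.3% of their 133 regions and EF_IGF1_xeno called 27.1%, at 7 or 8 of 8 genes. The EF libraries called 17.3% to 51.9% of these regions and Wt_IGF1 51.9%, and 0%, 13.5%, 44.4% and 60.9% were called in Wt replicates 1 to 4. Of 68 regions at hematopoietic markers, 14.7%, 13.2% and 8.82% were called in EF_IGF1 replicate 1, EF_IGF1 replicate 2 and EF_IGF1_xeno, against 79.4% in Wt replicate 2 and 4.41% to 30.9% in the remaining 8 libraries. Wt replicate 2 thus had a small share at mesenchymal markers and the largest at hematopoietic ones. None of the private regions lay at hematopoietic, endothelial, epithelial, muscle or smooth muscle and pericyte markers, and 1 of 37 neural marker regions, at Sox10, was among them. The EF_IGF1 libraries and EF_IGF1_xeno called 48.5%, 57.6% and 45.5% of 33 epithelial marker regions, and 51.4%, 48.6% and 32.4% of 37 at smooth muscle and pericyte markers. They called 61.5%, 53.8% and 38.5% of 13 muscle marker regions, 32.8%, 36.2% and 27.6% of 58 endothelial ones, and 45.9%, 35.1% and 24.3% of 37 neural ones. Several of these shares exceeded the mesenchymal ones, but each is over the regions called at that list in any library, so lists are not on 1 scale. By genes, each of the 3 libraries called a region at all 4 epithelial, 5 endothelial and 4 neural marker genes. They did so at 4 or 5 of 5 smooth muscle and pericyte genes, and at 1 or 2 of 4 muscle genes. Calls at these genes thus did not set the mesenchymal label apart from the epithelial, endothelial, neural or smooth muscle and pericyte ones. The part of other cell types in the result was not tested.

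**Figure D3:**
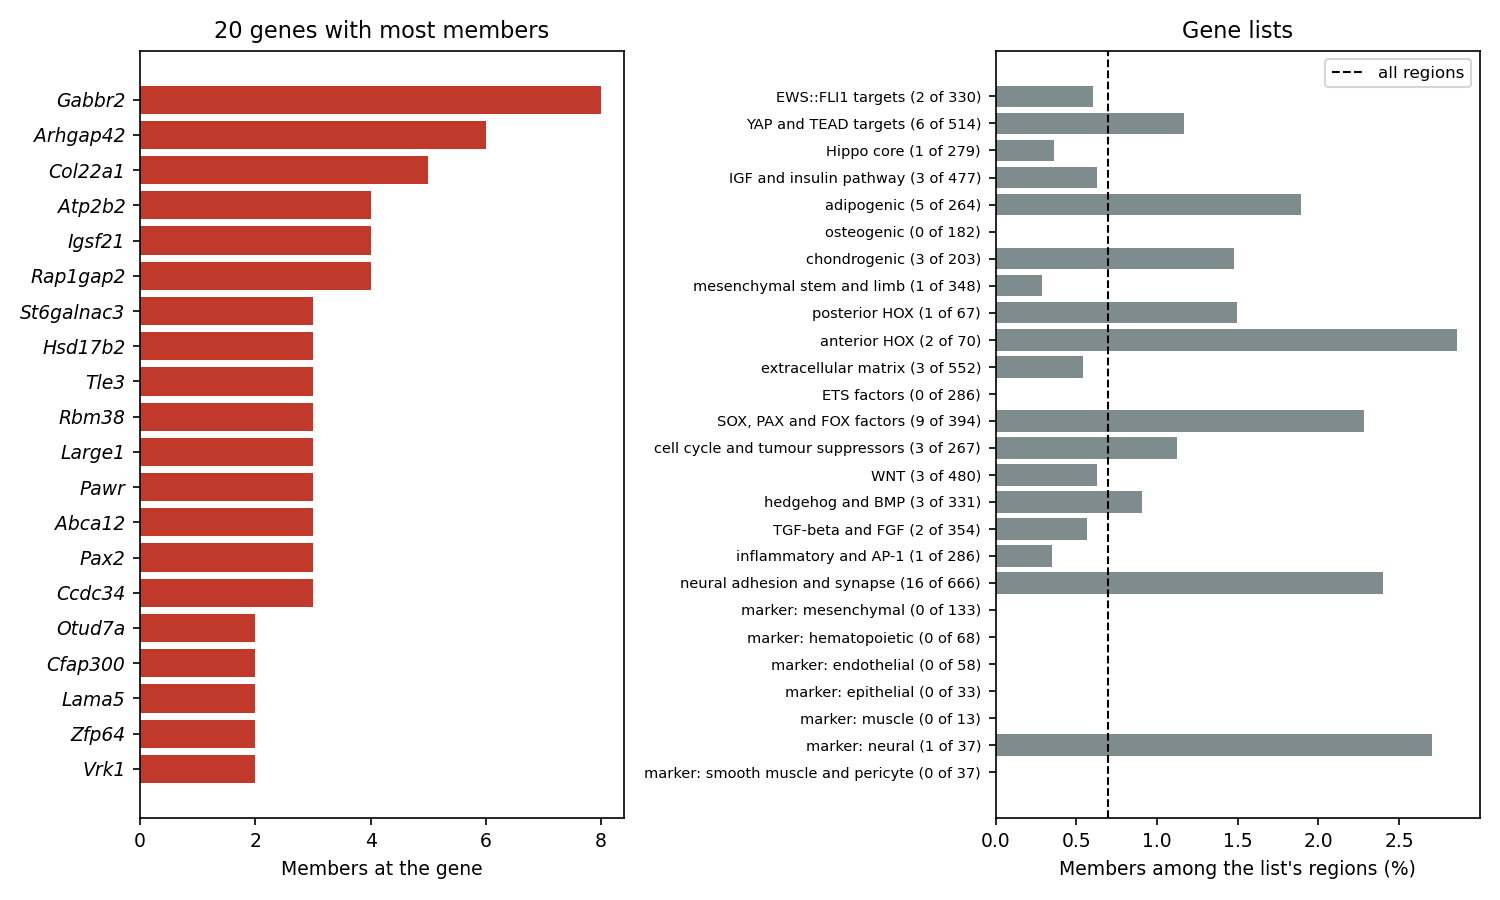
Left, number of private regions at each of the 20 named genes with most of them, from 8 at Gabbr2 to 2 at Vrk1. Right, private regions as a percent of all regions at the genes of each list, with counts in brackets; the dashed line marks 0.696% over all regions, and the lists with larger shares rest on at most 16 regions.

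By chromosome, the regions were most frequent on chromosome 15, which held 109 of them, 1.48% of its 7384 regions. Chromosome 4 followed with 1.08% and chromosome 8 with 0.917%, and chromosome 5 was lowest with 0.401%. The share of the regions on chromosome 15 was 10.2%, against 4.82% of all regions. This chromosome also stood apart at regions the rule did not use. At the 239 regions of chromosome 15 called in all 12 libraries, the local background, which is the level of reads around a peak, was 1.54 to 1.66 times the library's median in the 3 libraries (mean 1.58 ± 0.0699, SD, n = 3). It was 1.27 to 1.42 times in the EF libraries (1.33 ± 0.0626, n = 4), 1.04 times in Wt_IGF1 and 0.983 to 1.11 times in the Wt libraries (1.05 ± 0.0530, n = 4). The groups did not overlap, with the EF libraries between the 3 and the rest. Summit reads at these peaks followed the same order, at 1.31 to 1.37 times the median in the 3 libraries, 1.18 to 1.31 in EF, 0.983 in Wt_IGF1 and 1.00 to 1.03 in Wt. The raised level on chromosome 15 was chosen for description after it had been seen. Local background rises with the number of DNA copies as well as with openness around a peak, and these cannot be told apart in peak lists. Its part in the number of regions on chromosome 15 was not tested.

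Over the 20 chromosomes, the share of private regions and the log2 difference in local background between the 3 libraries and the 9 others were related with a Spearman correlation of 0.579, and 0.509 without chromosome 15. The points share libraries, and the relation is a description. The 1 Mb window with most private regions was also on chromosome 15. It ran from 74 to 75 Mb, with Adgrb1 and Psca, and held 13 private regions among 115, while that from 72 to 73 Mb, with Col22a1 and Trappc9, held 7 among 43 (16.3%). In the Col22a1 window the local background was 0.694 to 0.906 times the median in the 3 libraries and 0.633 to 1.56 in the others. From 74 to 75 Mb it was 1.56 to 1.84 times in the 3 libraries and 0.964 to 1.77 in the others, and from 73 to 74 Mb it was 1.55 to 1.90 in the 3 libraries and 1.01 to 1.71 in the others. In all of these windows the ranges overlapped.

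**Figure D4:**
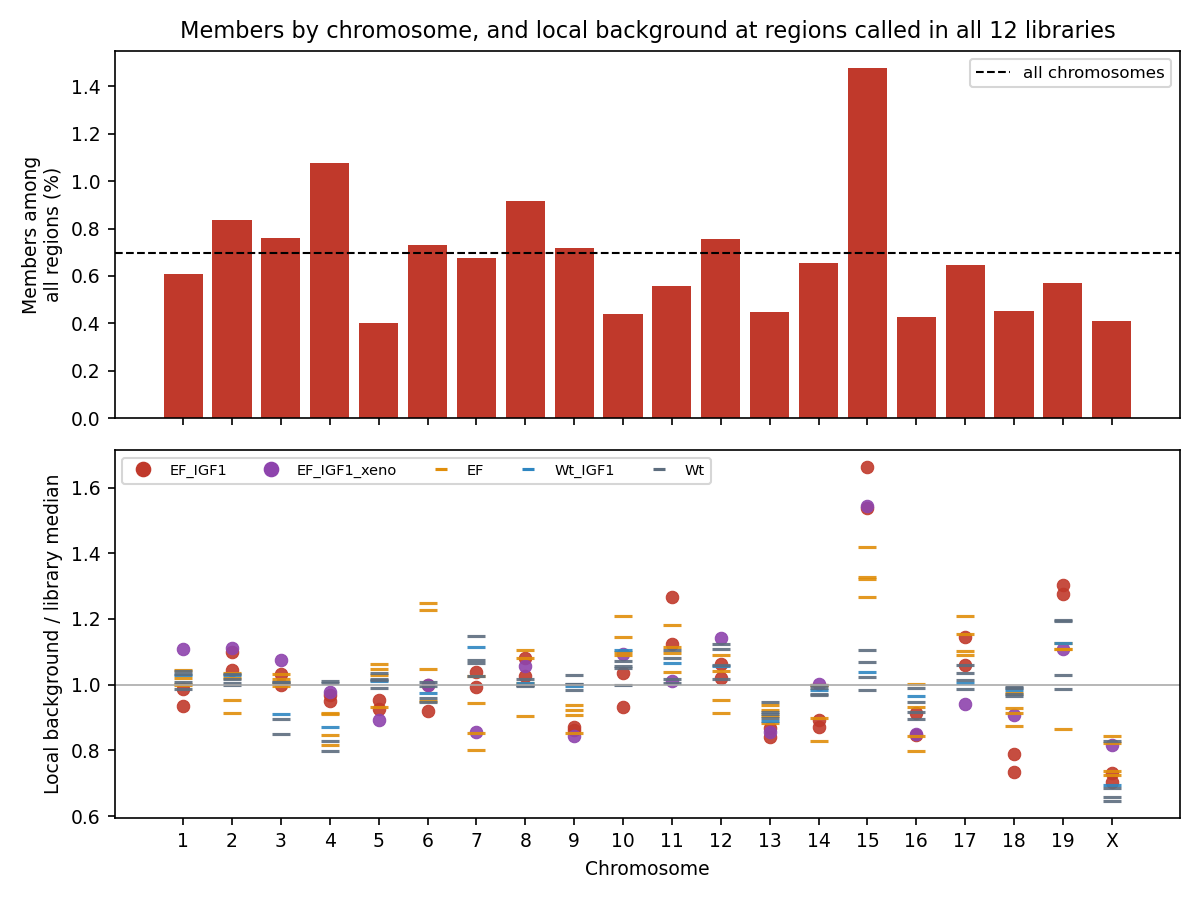
Top, private regions as a percent of all regions of each chromosome, with the dashed line at 0.696%; chromosome 15 is highest at 1.48%. Bottom, local background at regions called in all 12 libraries as a ratio to the library's median (1 line or point per library); on chromosome 15 the 3 libraries lie at 1.54 to 1.66, EF at 1.27 to 1.42 and the others at 0.983 to 1.11.

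A stretch of chromosome 9 that begins at Yap1 had the highest local background of the loci examined. Between 7.9 and 9.8 Mb it held 13 of the private regions among 209 (6.22%), at Cfap300 and Arhgap42 among others, while the stretch from 6.0 to 7.9 Mb held 0 of 104. In the raised stretch the median local background was 2.59, 3.10 and 3.92 times the library's median in EF_IGF1 replicate 1, EF_IGF1 replicate 2 and EF_IGF1_xeno. In the 8 others with peaks there it was 0.516 to 0.947 times. The 3 libraries called 120, 128 and 77 peaks in it, against 0 to 56 in the 9 others. In the stretch just before it the 3 libraries had 0.571 to 1.01 times the median and 13 to 20 peaks, within the range of the others (0.551 to 1.02 times, 6 to 55 peaks). Over the whole of chromosome 9, at 342 regions called in all 12 libraries, the ratio was 0.845 to 0.870 in the 3 libraries and 0.854 to 0.938 in EF, so the rise was local. Each median is over a library's own peaks, so the positions behind it differ. Near 1234 kb past the Yap1 start the ratio was 7.11 in EF replicate 4. There it was 15.5 to 19.6 in the 3 libraries and 0.516 to 3.98 in the others with a peak. Near 966 kb EF replicate 4 had 0.459, below EF replicate 1 (0.899) and EF replicate 3 (1.04). The bounds and these positions were set after the values were seen, so no test was made.

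Genes on both sides of the step show it without using the rule. Birc2, an apoptosis inhibitor gene whose start was called in all 12 libraries, lies just before Yap1. Its peak had 0.961 to 1.17 times the library's median reads in the 3 libraries and 1.18 to 1.71 times in the 9 others, so it was not raised. At the Yap1 start, which none of the private regions overlap, the peak had 200 and 197 reads in the EF_IGF1 libraries and 220 in EF_IGF1_xeno. The EF libraries had 19, 16, 50 and 104 reads there (replicates 1 to 4), Wt_IGF1 had 30 and Wt replicate 4 had 53. Wt replicates 1, 2 and 3 had no called peak over the start itself. Scaled to the median at regions called in all 12, the reads were 1.94, 1.99 and 2.39 in the 3 libraries, 0.442 to 1.09 in EF, 0.517 in Wt_IGF1 and 0.746 in Wt replicate 4. The local background at the Yap1 peak was 11.5, 13.8 and 12.7 times the library's median in the 3 libraries. It was 1.68 to 4.97 times in the others with a peak over the start, highest of these in EF replicate 4. The fold over local background was 4.88, 4.47 and 5.01 in the 3 libraries, within or just below the 4.89 to 9.70 of the others, so the peak and its surroundings were raised together. DNA copies and openness cannot be told apart here. The peaks read were also of unlike extent. In the 3 libraries and EF replicate 4 a single peak covered the start, centred at −0.41 to −0.32 kb (positive towards Arhgap42). EF replicates 1 to 3, Wt_IGF1 and Wt replicate 4 had a further peak at −1.09 to −0.98 kb, which was not read here. Wt replicate 3 had only such a peak, at −0.98 kb.

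At Arhgap42, which lies inside this stretch, the EF_IGF1 libraries called 38 and 52 of the 66 regions and EF_IGF1_xeno called 26, against 0 to 24 in the 9 others. The strongest of its 6 private regions had 69, 83 and 65 reads in EF_IGF1 replicate 1, EF_IGF1 replicate 2 and EF_IGF1_xeno. In the Gabbr2 window on chromosome 4, from 46 to 47 Mb, the median local background over all peaks was 0.863 to 1.05 times the library's median in the 3 libraries, within the 0.748 to 1.10 of the others. The private regions there differed among themselves. At the strongest the local background was 9.76, 8.50 and 7.18 reads in EF_IGF1 replicate 1, EF_IGF1 replicate 2 and EF_IGF1_xeno, above the library medians of 3.50, 3.14 and 3.40. It was above those medians in each of the 3 libraries at 4 of the 7 private regions of the window. The part of the local background in these calls was not tested.

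Further along chromosome 9, the window from 53 to 54 Mb showed a like rise. It held 4 private regions among 89, at Slc35f2, a solute carrier gene, and Elmod1, a gene of GTPase regulation, both of which fell outside the rule for named genes and were picked after their values were seen. Its local background was 2.55, 2.28 and 3.62 times the library's median in EF_IGF1 replicate 1, EF_IGF1 replicate 2 and EF_IGF1_xeno, and 0.574 to 1.03 times in the 9 others. The 3 libraries called 56, 55 and 38 peaks in it, against 7 to 36 in the 9 others. The groups did not overlap in either measure.

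**Figure D5:**
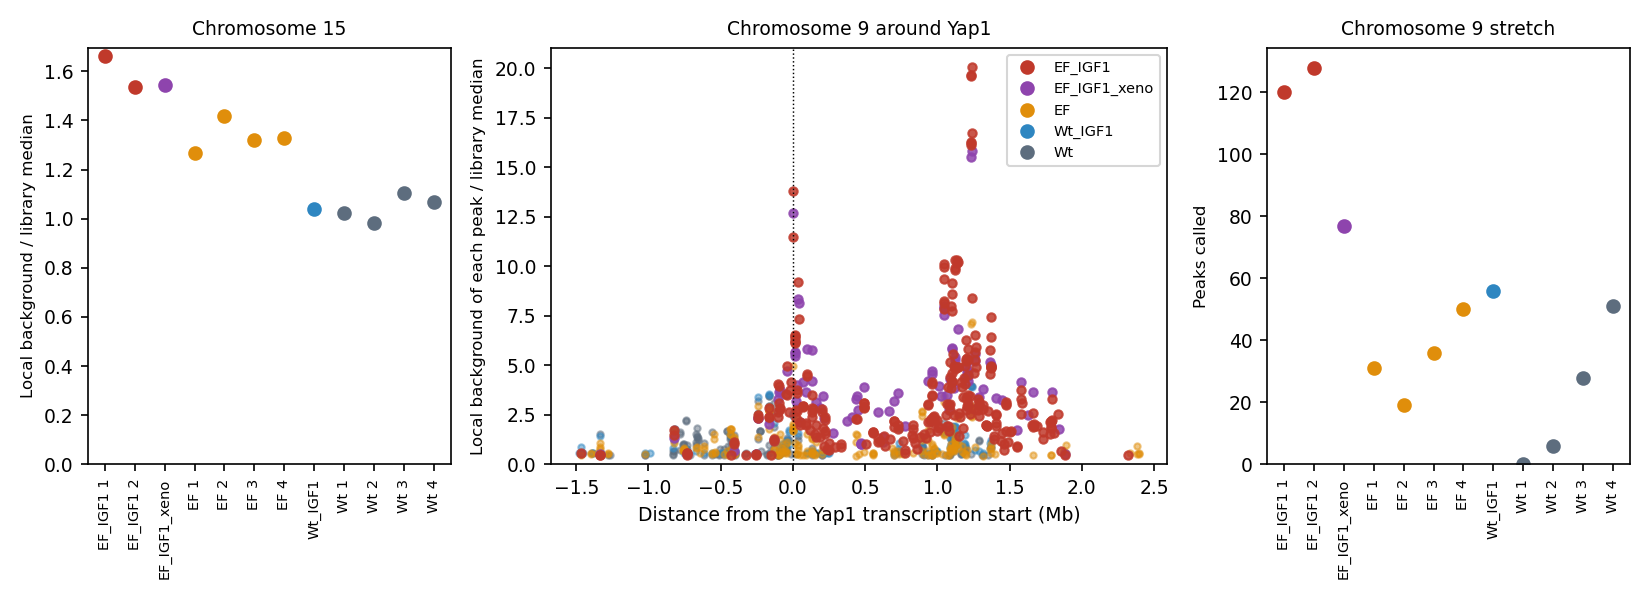
Left, local background on chromosome 15 over the library's median at regions called in all 12 libraries, highest in the EF_IGF1 and EF_IGF1_xeno libraries. Middle, local background of every peak over the library's median against distance from the Yap1 start in Mb (positive towards Arhgap42), with medians of 2.59, 3.10 and 3.92 in the 3 libraries over 7.9 to 9.8 Mb, against 0.516 to 0.947 in the others with a peak there. Right, peaks called between 7.9 and 9.8 Mb in each library: 120, 128 and 77 in the 3 libraries against 0 to 56 in the others.

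Regions called in all 12 libraries were not chosen by the rule, and their ranks were compared between libraries. Their nearness to the private regions does depend on the rule, since calls of these same libraries chose the private regions. The permutations kept the neighbours fixed, so the p-values below are descriptive and are not free of the rule. Of the 5784 such regions, 342 had a midpoint within 50 kb of a private region, and each was ranked by −log10 p among the 5784 within its library. Their mean percentile was 50.3 ± 0.489 in the 3 libraries (SD, n = 3) and 49.6 ± 0.566 in the 9 others (n = 9). The difference of 0.709 percentile points did not pass the exact two-sided permutation test over libraries (p = 0.0636 over 220 label orders, of which the smallest possible p is 0.00455). Against the 5 others of flowcell BSF_1013 at the same regions the exact permutation p was 0.0536, and against the 4 EF libraries it was 0.171. Ranked instead by the fold over local background, the same regions stood 2.32 percentile points lower in the 3 libraries (difference −2.32, exact permutation p = 0.00455, the smallest that 220 orders can give). The local background at these neighbours was 1.06 to 1.12 times the library's median in the 3 libraries and 1.02 to 1.06 times in the 9 others. The p-values measure only the spread between these libraries, which may be technical.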

How the data were processed

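The data were 12 ATAC-seq peak lists, 1 deposited for each library, so peaks were called per library. The submitters' processing notes name MACS2, without a version, and the build GRCm38.p3. Aligner, read filters, transposase shift, caller settings and control: not given in the sources used here. Per the labels, cells were lysed with digitonin in the transposase reaction and read as 50 bp single ends. Each deposited peak carries the authors' fold, a ratio to the local background. It also carries a −log10 p-value, a −log10 q-value and a score, which the authors' caller set at 10 times the −log10 q. All of them are a peak's own values and were used to rank, filter or describe peaks of the same list. Groups came from the genotype label, and replicates were numbered in accession order.

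Whole summit reads and the local background were solved from fold and p-value, where the fold is (reads + 1) / (background + 1) and p an upper Poisson tail. This solved 100% of peaks within 0.001 of the deposited −log10 p. Read totals per library were not at hand, and 7748 to 83718 peaks per library and the reads at regions called in all 12 libraries stood for depth. Peaks on other sequences (23 to 43 per library) were left out. Peaks were merged at an overlap of 1 bp with Python 3.11.15, pandas 2.3.3 and numpy 2.4.6. Regions were assigned to the nearest of 21631 RefSeq protein-coding genes of GRCm38.p6 within 100 kb (p3 and p6 share chromosome coordinates); the table holds no exons or strand. Promoter sequences are RefSeq's, GRCm38.p6. Exact permutation tests and Clopper-Pearson intervals used scipy 1.17.1, and the procedures were tested on simulated data.

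Named genes are the 20 with most members (unnamed gene models left out), those nearest the 12 strongest members, up to 12 with a member within 1 kb of a gene end, up to 4 per list with most members, and 11 fixed genes. The regions, gene lists and tests were chosen with earlier results of these data known, and the accounts of chromosome 15 and of the Yap1 stretch were added after the data were seen. Alternatives were a −log10 q of at least 5, the top 20000 peaks, windows of 250 bp around summits, flowcell BSF_1013 only, other distances and leaving out each library.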

Additional observations from a re-analysis of the deposited data

Results flagged for a closer look

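Among the 4 EF libraries, EF replicate 4 shared 1606 regions with the 3 libraries alone, against 11 to 34 in each of the other EF libraries, and so lay far from its group. On chromosome 15, EF replicate 2 had 1.31 times its median summit reads at regions called in all 12 libraries, apart from 1.18 to 1.20 in the other EF libraries. Near the private regions, the regions called in all 12 libraries had a mean percentile of 48.4 in Wt replicate 2, apart from 49.7 to 49.9 in the other Wt libraries. At the same regions Wt replicate 2 had a local background of 1.02 times its median, apart from 1.03 to 1.04 in the other Wt libraries. Chance alone sets a sample apart in this way in about 1 in 20 groups.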

How the results depend on the processing

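Over all alternatives, 94 values kept their direction and side of the threshold or moved little, 9 moved, 3 grew past the threshold and 3 reversed. With the top 20000 peaks of each library, 503 regions met the rule, 9.74% of them lay near a gene end, and EF_IGF1_xeno called 70.9% when held out. A distance of 2 kb put 9.93% near a gene end, and a gene distance of 20 kb left 39 regions at list genes. Leaving out each library in turn gave 1069 to 2688 regions: 1710 without EF_IGF1 replicate 2, 2199 without EF_IGF1_xeno and 2688 without EF replicate 4. The held-out share of EF_IGF1_xeno then ran from 48.1% to 58.3%, the highest without EF replicate 4. The shares near gene ends (4.80% to 6.46%), on chromosome 9 (4.91% to 6.00%) and on chromosome 15 (9.18% to 10.4%) moved little; without chromosome 15, 959 regions were left.

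The rank difference near the private regions was not stable, and its p-values are descriptive here too, since the neighbours were kept fixed. It was 1.74 (exact permutation p = 0.0179, the smallest 56 orders can give) with flowcell BSF_1013 alone and 0.995 (exact permutation p = 0.0364) within 100 kb. It was −0.170 (exact permutation p = 0.864) within 20 kb and −2.32 (exact permutation p = 0.00455) by fold. Leaving out each library gave −0.608 (without EF replicate 4, exact permutation p = 0.109) to 0.959 (without Wt replicate 1, exact permutation p = 0.0485). The cause was not tested. Replicate numbers here follow accession order and pair nothing, but titles name the lines S_220 and S_221. With the line as a block, chosen after seeing the data, the rank difference from the 4 EF libraries was 0.674 (exact two-sided permutation p = 0.278, where 18 orders allow no p below 0.0556), against 0.604 (exact permutation p = 0.171) without it.

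Depth limits what a missing call shows in Wt replicate 1 and EF replicate 2. EF_IGF1_xeno and Wt_IGF1 are single libraries, so neither has a measure of its own spread.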
